A study of Homo sapiens with 8 samples.

Results

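The high mobility group (HMG) genes encode small, abundant proteins that bind chromatin without recognising long DNA sequences, and 8 of them were followed here among the 18955 genes counted in single SUM159 cells. The members were taken by name from 3 families: HMGA1 and HMGA2, HMGB1, HMGB2 and HMGB3, and HMGN1, HMGN2 and HMGN3. All 8 were present in the count table and all 8 passed the filter on low counts (at least 5 CPM, the transcript counts of a gene scaled to a common library size, in at least 2 libraries), which left 9288 genes to test. As background, HMGA proteins grip the minor groove of AT-rich DNA through AT-hook motifs and are typical of embryonic and transformed cells, HMGB proteins bend DNA through paired HMG boxes, and HMGN proteins bind the nucleosome core and loosen compacted chromatin. HMGB1 is also known as a signal released by damaged cells, HMGB2 as a chromatin protein of dividing cells, and HMGA2 as a classic target of the let-7 microRNAs.

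SUM159 is a triple-negative breast cancer line, and the cells carried a lentiviral library of DNA barcodes, so each culture descends from a barcoded population of 1 line. Cultures were kept, over 18 passages at most, in vehicle (DMSO), the BET bromodomain inhibitor JQ1 at 100 nM, the microtubule drug paclitaxel at 0.6 nM, the CDK4/6 inhibitor palbociclib at 160 nM, JQ1 with paclitaxel, or JQ1 with palbociclib. Parallel cultures of each treatment were mixed in equal cell numbers ahead of droplet encapsulation, so each of the 8 libraries (Pre, DMSO, Tax, Pal, JQ1-A, JQ1-B, JQ1+Tax and JQ1+Pal) is 1 pool, and of JQ1+palbociclib a culture had died out. JQ1 alone has 2 libraries, JQ1-A and JQ1-B, and Pre is the untreated starting population. JQ1-A was taken as from the experiment with DMSO and paclitaxel. JQ1-B was taken as from the experiment with palbociclib, of which no vehicle library was analysed here. The sample labels name the treatment, and the experiment was assigned from the study's design, so the assignment is an assumption. Every fit with the experiment as a term or alone rests on it. With the experiment as a term, Pre was a level of its own and did not bear on the drug changes. Fewer residual degrees of freedom were left, so a call lost there does not by itself show an effect of the experiment.

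The libraries held 459 to 1024 cells and 10621159 to 24240835 unique molecular identifiers (UMIs, one per captured transcript), with a mean of 22305 to 24171 UMIs per cell, and 13 cell barcodes occurred in more than 1 library (26 of 5738 cells). The mesenchymal markers VIM (3279 to 4502 CPM) and CD44 (228 to 437 CPM) were present in every library, ESR1 and PGR stayed at or below 0.139 CPM, ERBB2 lay between 5.32 and 12.0 CPM, and PTPRC and EPCAM were at or below 0.565 CPM. Cells called G1 from cycle genes made up 4.78% to 24.0% of the 3 libraries with neither JQ1 nor palbociclib and 44.9% to 63.7% of the other 5. The median share of mitochondrial UMIs was 3.72% to 3.96% in the first 3 and 4.69% to 7.18% in the other 5. Both measures thus move with JQ1 and with palbociclib in the comparisons below, and beyond the fits within phases their part in the results was not tested. With 1 library for most treatments, culture, capture and treatment cannot be told apart, and in sums over a library fewer cells with a transcript and less RNA per cell cannot be told apart either.

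In the GRCh37 annotation, HMGA1 lies on chromosome 6 (34204650 to 34214008), HMGA2 on chromosome 12 (66218240 to 66360071), HMGB1 on chromosome 13 (31030841 to 31191734), HMGB2 on chromosome 4 (174252527 to 174255583) and HMGB3 on chromosome X (150148982 to 150159244). HMGN1 lies on chromosome 21 (40714241 to 40721573), HMGN2 on chromosome 1 (26798931 to 26803133) and HMGN3 on chromosome 6 (79910962 to 79944406). All 8 are annotated as protein-coding. HMG genes have many processed pseudogene copies, so reads shared with a copy may be missing or misplaced in these counts. Only 1 such copy was a row of the table, HMGA1P4, with 56 UMIs in all. The antisense gene HMGN3-AS1 was counted apart from HMGN3, at 0.906 to 1.77 CPM.

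Promoter sequence was looked up because members of the HMGB family followed the cell cycle together, and the CCAAT box and the cell cycle homology element TTTGAA are elements known from promoters of G2 and M phase genes. RefSeq windows (GRCh38.p14) matched 6 of the 8 members (not HMGA2 or HMGB2), in 10 windows, and the 250 bases before each start site were searched on both strands for CCAAT and TTTGAA (2 matches may share letters, though none do in the windows shown). The windows shown are the HMGB1 and HMGB3 windows with the most CCAAT boxes and that of HMGN1, a member whose level hardly differed between cycle phases (below). Each is written 5′ to 3′ along the gene with the motifs in capitals: HMGB1 at chr13:30465937-30466186 (minus strand), HMGB3 at chrX:150983085-150983334 (plus strand) and HMGN1 at chr21:39349089-39349338 (minus strand).
HMGB1: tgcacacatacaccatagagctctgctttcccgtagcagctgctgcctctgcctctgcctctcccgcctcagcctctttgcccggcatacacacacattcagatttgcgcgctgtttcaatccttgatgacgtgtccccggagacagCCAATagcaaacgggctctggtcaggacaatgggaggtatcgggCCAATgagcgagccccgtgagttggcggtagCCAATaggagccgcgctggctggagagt
HMGB3: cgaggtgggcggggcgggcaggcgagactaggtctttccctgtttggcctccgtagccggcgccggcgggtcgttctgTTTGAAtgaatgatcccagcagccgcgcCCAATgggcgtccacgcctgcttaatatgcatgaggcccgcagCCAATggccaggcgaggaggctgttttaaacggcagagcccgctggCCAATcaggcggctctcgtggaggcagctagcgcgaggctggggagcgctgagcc
HMGN1: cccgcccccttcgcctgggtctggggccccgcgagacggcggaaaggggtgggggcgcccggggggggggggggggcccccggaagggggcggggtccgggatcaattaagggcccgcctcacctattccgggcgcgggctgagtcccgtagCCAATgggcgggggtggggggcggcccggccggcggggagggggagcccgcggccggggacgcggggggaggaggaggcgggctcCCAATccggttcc
The HMGB1 window holds 3 CCAAT boxes in the direction of the gene, 103, 59 and 28 bases before the start. The HMGB3 window holds 3 as well, 144, 101 and 55 bases before the start, and a TTTGAA 172 bases before it. HMGN1 holds 2 CCAAT boxes, 98 and 13 bases before its start, and no TTTGAA. Over all 35116 windows of this length, 32.0% held at least 1 CCAAT, 9.53% at least 2 and 2.93% at least 3, and 13.3% held a TTTGAA. Other windows of the same genes differed, since a further HMGB1 window held 1 CCAAT and 1 TTTGAA, and 1 window each of HMGA1, HMGB1 and HMGB3 held neither. HMGN3 held 2 CCAAT boxes, and HMGN2 and the other HMGA1 window 1 each. These matches are a description of letters, not of binding.

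Across the 8 libraries, HMGA2, HMGB3 and HMGB1 varied most among the members and HMGN1 and HMGN3 least. The highest CPM was 3.85 times the lowest for HMGA2, 3.45 times for HMGB3, 3.06 times for HMGB1, 2.61 times for HMGA1, 2.58 times for HMGB2, 2.13 times for HMGN2, 1.45 times for HMGN1 and 1.33 times for HMGN3. Together the 8 genes took 0.487%, 0.507% and 0.542% of all UMIs in Pre, DMSO and Tax and 0.271% to 0.419% in the libraries with JQ1 or palbociclib. The yardstick for these folds is the pair of JQ1 libraries, which differed by 1.07-fold for HMGA2, 1.11-fold for HMGB3, 1.12-fold for HMGN1, 1.15-fold for HMGB1, 1.17-fold for HMGN3, 1.19-fold for HMGB2, 1.27-fold for HMGN2 and 1.38-fold for HMGA1. Of the 28 pairs of libraries, 23 differed by more than that for HMGA2 and HMGB3 and 22 for HMGB1, but 11 for HMGN1 and 8 for HMGN3. For HMGA2 the counting interval of the JQ1-B to JQ1-A ratio ran from 0.766 to 1.504, and 5 of the 7 neighbouring libraries in its order had overlapping intervals, so its count of 23 says little.

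**Figure D1:**
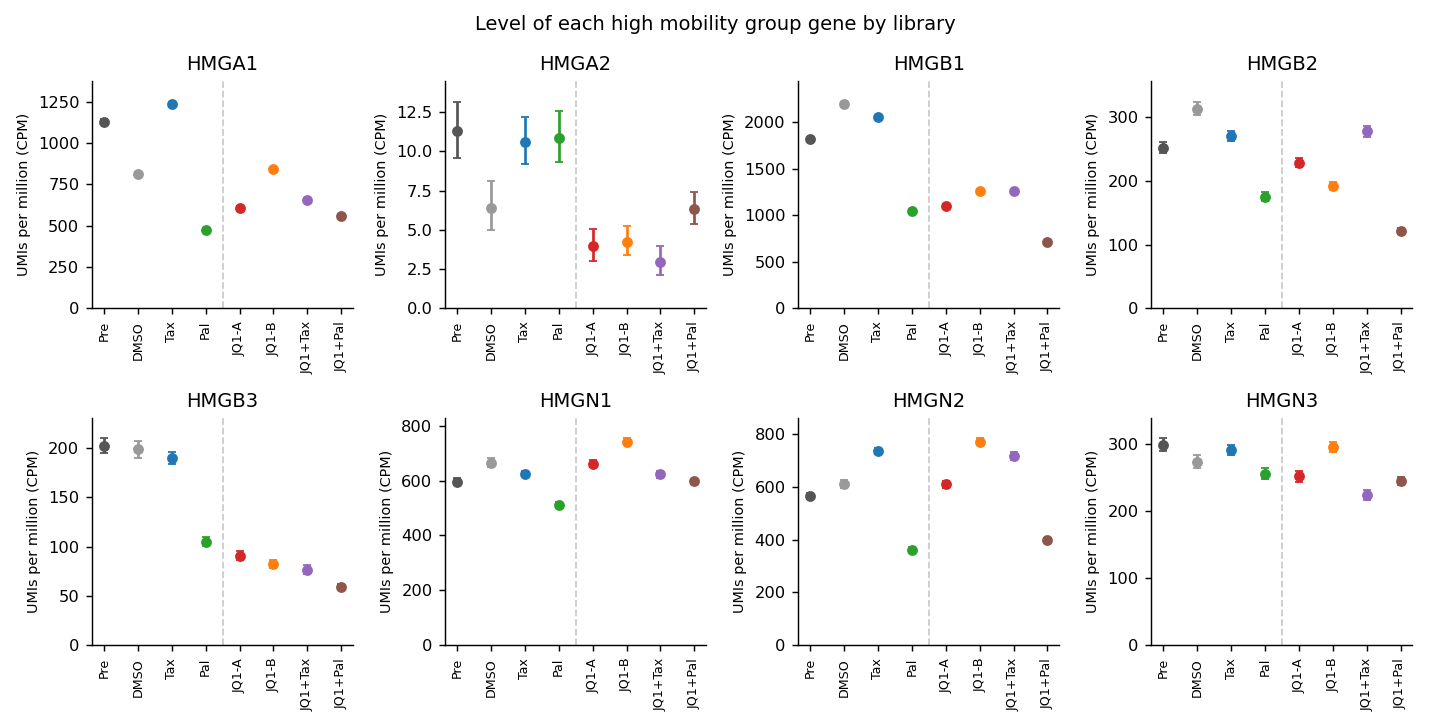
Level of each member (CPM, linear axis from 0) in each of the 8 libraries, with 95% exact Poisson intervals that cover counting error only. The dashed line parts the 4 libraries without JQ1 (left) from the 4 with it (right): HMGB3 lies at 105 to 202 CPM on the left and 58.7 to 91.0 CPM on the right, while HMGN3 stays within 225 to 300 CPM (299.7 in Pre).

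Among the HMGB genes, HMGB3 and HMGB1 fell with JQ1. The fit compared the 4 libraries with JQ1 and the 4 without, with palbociclib and paclitaxel as further terms (edgeR quasi-likelihood test, Benjamini-Hochberg adjustment over 9288 genes, called under 0.05). It called 37.6% of all genes tested, 17.8% higher and 19.7% lower, and 5 of the 8 members, 3 lower and 2 higher.

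HMGB3, the X-linked family member known from haematopoietic progenitors, stood at 202 CPM in Pre, 199 in DMSO, 190.0 in Tax and 105 in Pal, against 91.0 in JQ1-A, 82.3 in JQ1-B, 76.3 in JQ1+Tax and 58.7 in JQ1+Pal. Every library with JQ1 lay below every library without it, as was the case for 22.7% of all genes tested. HMGB3 fell by 0.95 ± 0.09 on the log2 scale (SE, 4 against 4 libraries, adjusted p = 0.000778 by edgeR). It was called in every refit without 1 library, over which its change ran from -0.998 to -0.907, and also with the experiment as a term (-0.90, adjusted p = 0.0299 by edgeR). The share of cells with an HMGB3 UMI, after each cell was thinned to 10000 UMIs, was 78.0% to 82.5% in Pre, DMSO and Tax, 55.9% in Pal, and 39.5% to 50.5% in the JQ1 libraries.

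HMGB1, the ubiquitous DNA-bending member, stood at 1820.3 CPM in Pre, 2195 in DMSO, 2063 in Tax and 1047 in Pal. With JQ1 it was 1103 CPM in JQ1-A, 1265 in JQ1-B, 1258 in JQ1+Tax and 718 in JQ1+Pal. The groups overlapped through Pal, which lay below 3 of the 4 JQ1 libraries. HMGB1 fell by 0.50 ± 0.09 (adjusted p = 0.00565 by edgeR), and by 0.44 to 0.55 in the refits without 1 library, in each of which it was called. With the experiment as a term the change was -0.56 and the adjusted p by edgeR 0.0680. Nearly all cells held an HMGB1 UMI at 10000 UMIs per cell, 96.7% to 100% by library.

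HMGB2, a member of the G2/M gene list, was 252 CPM in Pre, 313 in DMSO, 270.3 in Tax and 175 in Pal, and 228 in JQ1-A, 192 in JQ1-B, 278 in JQ1+Tax and 121 in JQ1+Pal. The groups overlapped, and the JQ1 change of -0.14 ± 0.14 was not called (adjusted p = 0.466 by edgeR).

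Of the HMGA genes, HMGA2 fell with JQ1 and HMGA1 was not called. HMGA2 was counted sparsely, with 42 to 193 UMIs per library and a UMI in 2.64% to 12.5% of cells thinned to 10000 UMIs. Its levels were 11.3 CPM in Pre, 6.40 in DMSO, 10.6 in Tax and 10.9 in Pal, against 3.96 in JQ1-A, 4.24 in JQ1-B, 2.93 in JQ1+Tax and 6.31 in JQ1+Pal. The 2 groups touched without overlapping, since the 95% Poisson interval of DMSO (4.97 to 8.12) covered the value of JQ1+Pal. HMGA2 fell by 1.01 ± 0.22 (adjusted p = 0.0101 by edgeR), and by 0.83 to 1.17 without 1 library, in each of which it was called, but with the experiment as a term the adjusted p by edgeR was 0.0928.

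HMGA1, the more widely expressed of the pair, ranged from 473 CPM in Pal to 1233 in Tax. Values were 1125 in Pre and 810.1 in DMSO, and with JQ1 608 in JQ1-A, 841 in JQ1-B, 657 in JQ1+Tax and 561 in JQ1+Pal. The JQ1 change was -0.18 ± 0.18 (adjusted p = 0.443 by edgeR). The ratio of DMSO to Pre was 0.720, with a counting interval of 0.701 to 0.739, and that of JQ1-A to DMSO was 0.751 (0.729 to 0.773), so the 2 intervals overlapped.

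Of the nucleosome-binding HMGN genes, HMGN1 and HMGN2 were called higher with JQ1, a call that depended on the scaling and on the experiment term. HMGN1 was 596 CPM in Pre, 665 in DMSO, 623 in Tax and 512 in Pal, and 660.4 in JQ1-A, 741 in JQ1-B, 623 in JQ1+Tax and 597 in JQ1+Pal. HMGN2 was 566, 611, 736 and 363 CPM in Pre, DMSO, Tax and Pal, and 609.5, 771, 717 and 398 CPM in JQ1-A, JQ1-B, JQ1+Tax and JQ1+Pal. Both overlapped widely between the groups. HMGN1 rose by 0.33 ± 0.08 (adjusted p = 0.0183 by edgeR) and HMGN2 by 0.33 ± 0.10 (adjusted p = 0.0342) after scaling by trimmed means (TMM). Scaled by library totals instead, they changed by 0.13 and 0.14 and were not called (adjusted p = 0.263 and 0.307 by edgeR). That scaling moved the median of all genes by about 0.20 on the log2 scale, to -0.20, and turned 1655 genes called higher and 1833 lower into 862 higher and 2925 lower. With size factors by relative log expression they changed by 0.33 and 0.34 and were called (adjusted p = 0.0173 and 0.0324 by edgeR). Leaving out 1 library kept the call of HMGN1 in 5 of 8 refits and of HMGN2 in 4 of 8, the call being lost for both without Pre, JQ1-A or JQ1-B and for HMGN2 without DMSO. With the experiment as a term both calls were lost as well, at 0.26 and 0.22 (adjusted p = 0.229 and 0.297 by edgeR), and so they were within the experiment with paclitaxel, at 0.29 and 0.27 (adjusted p = 0.139 and 0.158). HMGN3 changed by 0.05 ± 0.09 (adjusted p = 0.686 by edgeR) and by -0.14 on library totals, called on neither.

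**Figure D2:**
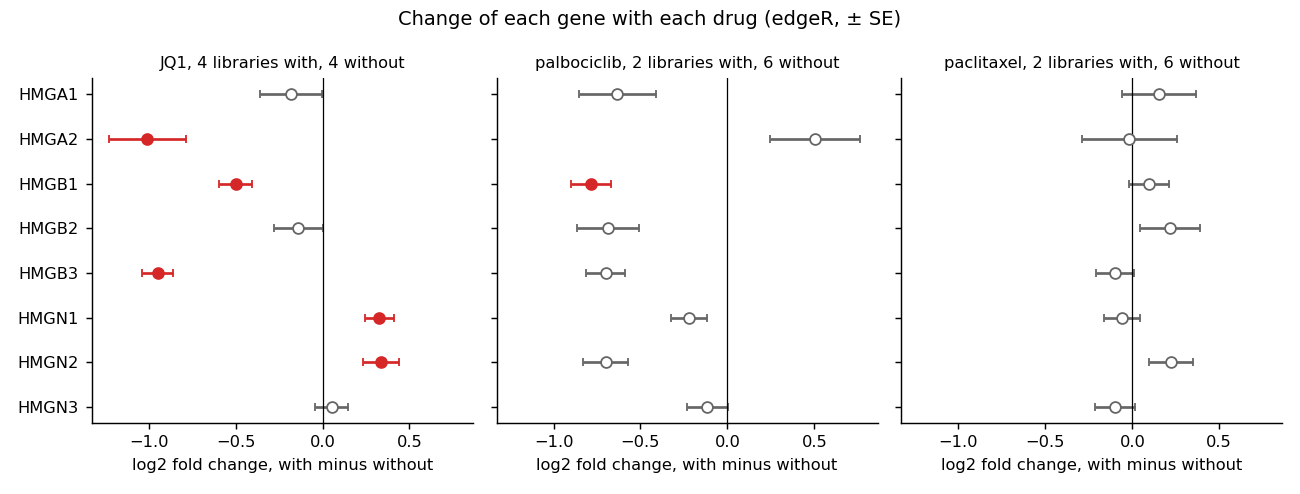
Log2 fold change of each member with JQ1, palbociclib and paclitaxel, libraries with the drug minus libraries without, from 1 fit over all 8 libraries, with standard errors. Filled red points were called: 5 for JQ1, from HMGA2 at -1.01 to HMGN2 at 0.33, 1 for palbociclib, HMGB1 at -0.78, and 0 for paclitaxel.

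Palbociclib went with lower values of 7 members, of which 1 was called. The comparison set Pal and JQ1+Pal against the other 6 libraries and called 0.280% of all genes (0.0754% lower), that is 26 genes, with 2056 at an unadjusted p under 0.05. HMGB1 fell by 0.78 ± 0.12 (adjusted p = 0.0436 by edgeR). The next members were HMGB3 at -0.70 ± 0.11 (adjusted p = 0.0529), HMGN2 at -0.70 ± 0.13 (0.0712), HMGB2 at -0.69 ± 0.18 (0.0993) and HMGA1 at -0.63 ± 0.22 (0.155). HMGN1 was at -0.22 ± 0.10, HMGN3 at -0.12 ± 0.12 and HMGA2, alone among the members, above 0 at 0.50 ± 0.26.

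In HMGA1, HMGB1, HMGB2 and HMGN2, both palbociclib libraries lay below all 6 others, as did 5.10% of all genes tested. HMGN2 averaged 380.1 ± 24.9 CPM (SD, n = 2) with palbociclib and 668 ± 83.5 CPM (n = 6) without. HMGB1 averaged 882 ± 233 CPM with the drug and 1617 ± 467 CPM without. In direct ratios with counting intervals, HMGN2 in JQ1+Pal was 0.516 (0.503 to 0.529) of JQ1-B, and in Pal 0.594 (0.573 to 0.615) of DMSO. HMGB3 was 0.713 (0.664 to 0.765) and 0.529 (0.496 to 0.564) in the same pairs.

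The palbociclib calls were unstable. DESeq2 called 4 members (HMGB1, HMGB2, HMGB3 and HMGN2) and 515 genes, and a fit with the experiment as a term called none of either. HMGB1 was called in 3 of the 8 refits without 1 library. Its change stayed between -0.83 and -0.72 in all 8, with adjusted p from 0.0265 to 0.215 by edgeR. The call was lost without Pre, DMSO, JQ1-A, JQ1-B or Pal.

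Paclitaxel changed no member past the threshold. The test of Tax and JQ1+Tax against the other 6 libraries called 0 of 9288 genes (0%) by edgeR, 9 by DESeq2 and 395 at an unadjusted p under 0.05. The members lay between HMGN2 at 0.22 ± 0.13 and HMGN3 at -0.10 ± 0.12, with adjusted p from 0.885 to 0.991 by edgeR. In direct ratios of Tax to DMSO, HMGA2 was 1.66 (1.25 to 2.22), HMGA1 1.52 (1.48 to 1.56), HMGN2 1.20 (1.17 to 1.24) and HMGB3 0.956 (0.905 to 1.01). In the ratios of JQ1+Tax to JQ1-A, HMGA2 was 0.740 (0.489 to 1.11), HMGA1 1.08 (1.05 to 1.11), HMGN2 1.18 (1.14 to 1.21) and HMGB3 0.838 (0.774 to 0.907).

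Whether the JQ1 change differed beside a second drug was tested with interaction terms. That fit left 2 residual degrees of freedom, so a missing call carries little weight. None of the 8 members was called for JQ1 with palbociclib or with paclitaxel (1 and 36 of 9288 genes called by edgeR, 1580 and 1577 at an unadjusted p under 0.05). The smallest member p-value was that of HMGB2 with paclitaxel, 0.51 ± 0.24 (unadjusted p = 0.0604, adjusted p = 0.315 by edgeR). For HMGA1 the term with palbociclib was 0.49 ± 0.31 (adjusted p = 0.446). In its direct ratios, JQ1+Tax to Tax was 0.533 (0.520 to 0.546) while JQ1+Pal to Pal was 1.19 (1.15 to 1.22).

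Across cells within each library, HMGB2 had the closest relation to the G2M score among the members. S and G2M scores were computed from 40 and 53 cycle genes after HMGB2 had been taken off the list, on 5487 cells thinned to 10000 UMIs. Spearman's rho of HMGB2 with the G2M score was 0.67 as a median over the 8 libraries, from 0.39 in Tax to 0.74 in JQ1-A. Since HMGB2 belongs to the published G2M list, a high value is part of how that list was made, and no rank is given for it. The other members were ranked among 2089 genes with a mean of at least 0.5 thinned UMIs per cell, all off the lists but HMGB2, which the ranks count. HMGB1 followed at 0.34 (0.20 to 0.47, rank 19), HMGB3 at 0.27 (0.11 to 0.37, rank 38) and HMGN2 at 0.17 (0.03 to 0.33, rank 127). HMGN3 stood at 0.11 (rank 355), HMGA1 at 0.08 (rank 601) and HMGN1 at -0.02 (rank 1706), where the median of all these genes was 0.04, and HMGA2 (-0.02) was too sparse to read. With the S score, HMGB1 stood at 0.36 (rank 4), from 0.11 in JQ1+Pal to 0.42, and HMGB2 at 0.32, from -0.06 in Tax to 0.49, against a median of 0.04. These are descriptions over cells of the same library, which share capture and depth. HMGB1 also had a rho of -0.35 with the mitochondrial share of the cell, and the part of that in its other relations was not tested.

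**Figure D3:**
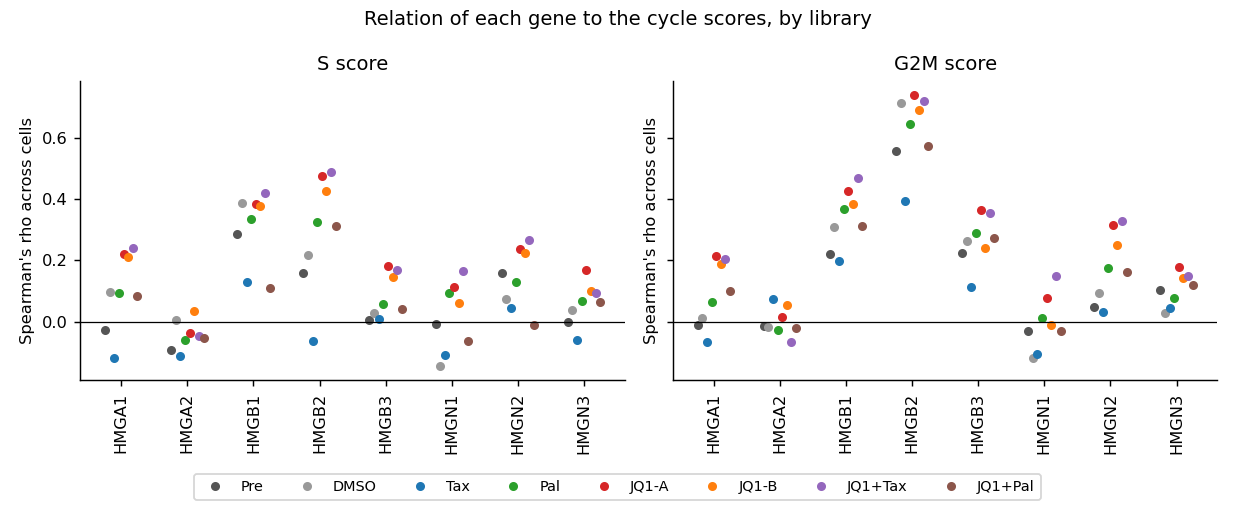
Spearman's rho across cells between each member and the S score (left) or the G2M score (right), 1 point per library, colours as in the key. HMGB2 stands highest on the right in every library (0.39 to 0.74), and HMGA2 and HMGN1 have points on both sides of 0. HMGA1 lies above 0 with both scores in DMSO (0.097 and 0.011) and in the 5 libraries with JQ1 or palbociclib. In Pre and Tax it lies below 0 with both.

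Cells were called by phase from the same S and G2M scores, so the levels by phase give these relations in another form and are not separate evidence. For HMGB2, the place on the published G2M list bears on these levels and on the shares below as well. HMGB2 in G1 cells was 91.1 CPM in Pre, 68.2 in DMSO, 140.0 in Tax and 39.8 in Pal, and 41.4 in JQ1-A, 37.2 in JQ1-B, 45.2 in JQ1+Tax and 33.5 in JQ1+Pal. In G2M cells it was 428, 540.1, 341 and 464 CPM in Pre, DMSO, Tax and Pal, and 499, 423, 621 and 265 CPM in the JQ1 libraries in the same order. G2M cells thus held 2.43 times the G1 level in Tax, 4.70 in Pre, 7.91 in JQ1+Pal, 7.92 in DMSO and 11.4 to 13.7 times in the other 4 libraries, with a median of 9.64. S cells held 3.62 times the G1 level as a median (1.46 to 5.19).

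HMGB3 was higher mainly in G2M cells, and HMGB1 in S and G2M cells alike. The median ratio of G2M to G1 cells was 1.96 for HMGB3 (1.17 to 2.64) and 1.52 for HMGB1 (1.17 to 1.89), each above 1 in all 8 libraries. The ratio of S to G1 cells was 1.05 for HMGB3, above 1 in 5 libraries, and 1.42 for HMGB1, above 1 in all 8. HMGN2 had ratios of 1.25 in S and 1.33 in G2M, and HMGA1 of 1.19 and 1.13. HMGN3 had ratios of 1.097 and 1.20, each above 1 in 7 libraries. HMGN1 was level, at 1.03 in S and 0.962 in G2M, above 1 in 5 libraries and in 1.

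**Figure D4:**
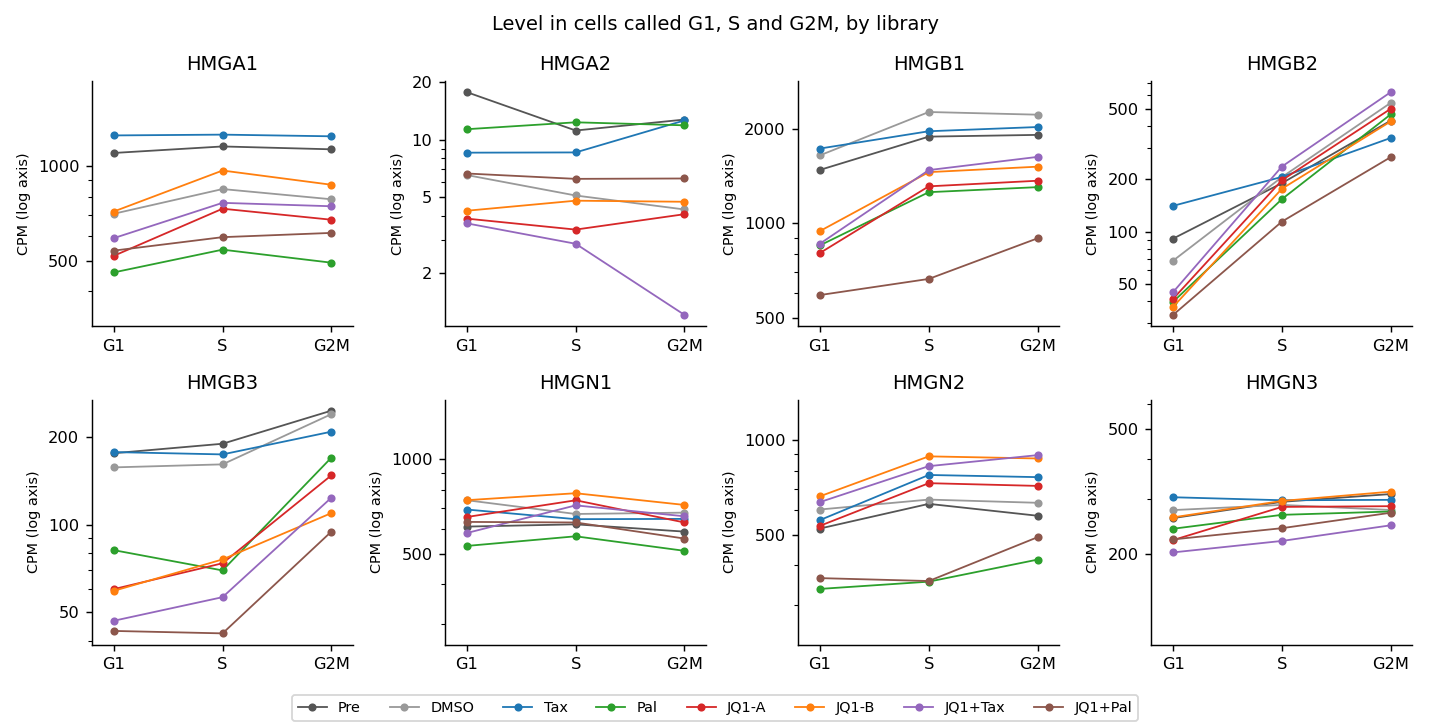
Level of each member (CPM, log axis) in cells called G1, S and G2M, 1 line per library. HMGB2 climbs in every library, from 33.5 to 140.0 CPM in G1 to 265 to 621 CPM in G2M, HMGB3 climbs mainly between S and G2M, and HMGN1 stays flat.

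Detection followed. At 10000 UMIs per cell, an HMGB2 UMI was found in 86.5% to 96.3% of G2M cells and 56.7% to 79.9% of S cells. Among G1 cells it was found in 48.9% (exact binomial interval 40.2% to 57.6%) of Pre, 35.5% (26.5% to 45.4%) of DMSO and 68.6% (50.7% to 83.1%) of the 35 G1 cells of Tax. In Pal and the 4 JQ1 libraries the share was 25.3% to 30.6%. No cell type that lacks HMGB2 was present, so the share that free RNA gives could not be set beside these values. Intervals cover counting error only.

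**Figure D5:**
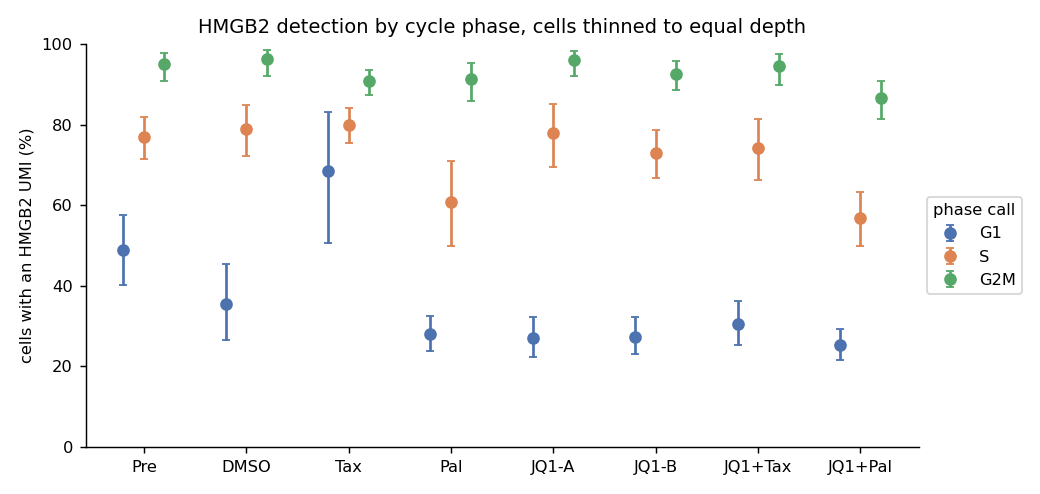
Percent of cells with an HMGB2 UMI among cells called G1, S and G2M in each library, all cells thinned to 10000 UMIs, with 95% exact binomial intervals. G2M shares stay between 86.5% and 96.3%, while G1 shares run from 25.3% in JQ1+Pal to 68.6% in Tax, where 35 cells were called G1.

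Since libraries differed in phase make-up, the JQ1 comparison was repeated on sums over cells of 1 phase. HMGB3 was called in each, at -1.11 ± 0.13 in G1, -0.98 ± 0.10 in S and -0.69 ± 0.10 in G2M cells (adjusted p = 0.000766, 7.07e-05 and 0.00138 by edgeR). HMGB1 was called in each as well, at -0.55, -0.48 and -0.32, and so was HMGA2, at -0.94, -1.16 and -1.06. The HMGA2 values rest on few counts. Thinned cells of JQ1+Tax held 11, 4 and 2 of its UMIs in G1, S and G2M, though the fits used all UMIs of the cells. HMGN1 and HMGN2 were called in S and G2M cells and not in G1 cells (adjusted p = 0.114 and 0.0665 by edgeR).

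HMGB2 was called lower with JQ1 in G1 cells, by 0.70 ± 0.18 (adjusted p = 0.0243 by edgeR). It was not called in S or G2M cells, where its changes lay above 0, at 0.04 ± 0.13 and 0.17 ± 0.22. Without the Tax library the G1 change was -0.52 ± 0.17 and not called (adjusted p = 0.0551 by edgeR), and with phases scored within each library, which put 24.0% of Tax cells in G1, it was -1.09 ± 0.27 (adjusted p = 0.0229). The difference between phases was tested itself, as the change of the log2 ratio of G2M to G1 cells with JQ1 (limma over 4375 genes of at least 20 CPM, pseudocount 1 CPM). HMGB2 gave 0.94 ± 0.56 (adjusted p = 0.580 by limma) and HMGB3 0.57 ± 0.21 (adjusted p = 0.469). No gene was called by that test, with 436 at an unadjusted p under 0.05, so a difference between phases was not shown for any member tested. HMGA2, at a mean of 7.08 CPM, lay under that floor and was not tested.

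Of the members with at least 0.5 thinned UMIs per cell, which leaves out HMGA2, HMGB2 varied most between cells beyond sampling. The squared coefficient of variation in excess of Poisson noise, over thinned cells, had a median of 1.42 for HMGB2, from 0.315 in Tax to 2.38 in Pal. Of 453 genes within 1.5-fold of its level, 3 reached that value, HMGB2 itself among them, and the median of the 453 was 0.128. The other genes of the cycle lists had been left out of that set, so the count gives no place among cycle genes. HMGB3 had 0.364, HMGB1 0.304, HMGA1 0.272 and HMGN2 0.241. HMGN1 (0.106) and HMGN3 (0.0827) lay below the medians of their own level, 0.121 and 0.125. Between members, the closest pair across cells was HMGB1 with HMGN2, at a median rho of 0.28 over libraries and 0.41 within G1 cells. HMGB1 with HMGB2 had 0.27 over all cells and 0.11 within G1 cells.

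For members whose level ranged by more than 2-fold over the 8 libraries, the genes nearest in pattern were ranked by the root mean square difference of centred log2(CPM + 1), among 4432 genes of mean at least 20 CPM. For HMGB3 they were PEF1 (0.04), ANP32E (0.08) and MORF4L2 (0.09), for HMGB1 PPIE (0.09), ENO1 (0.09) and KIF22 (0.10), and for HMGB2 RSRC2 (0.12), STMN1 (0.15) and RHNO1 (0.18). For HMGA1 they were YWHAH (0.14), TNFRSF12A (0.15) and MRPL27 (0.15), and for HMGN2 TK1 (0.15), STARD4-AS1 (0.15) and H2AFX (0.16). Between members the nearest pair was HMGN1 with HMGN3 (0.17), and HMGB1 lay 0.25 from HMGB2 and 0.27 from HMGB3.

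Other genes of the same proteins' surroundings were read from lists, each beside the 37.6% of all genes called for JQ1. HMGN5, the X-linked relative of the HMGN family, was 47.9 to 68.8 CPM in the 4 libraries without JQ1 and 19.97 to 29.6 CPM in the 4 with it, and fell by 0.99 ± 0.12 (adjusted p = 0.00121 by edgeR). HMGN4 lay at 1.42 to 4.29 CPM, under the filter, and HMGB4 was not analysed here. Of 18 HMG-box genes outside the HMGB family that were tested, 4 rose and 2 fell with JQ1 (median 0.09). SOX9, a lineage transcription factor, rose by 1.53 ± 0.16 and SOX4 by 0.65 ± 0.19, and TOX2 fell by 1.16 ± 0.26 (adjusted p = 0.00096, 0.0289 and 0.0104 by edgeR). The other called genes, named after their values were seen, were CIC at 0.65 and SOX12 at 0.48, higher, and SSRP1, a subunit of the FACT histone chaperone, at -0.46, lower.

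Linker histones, which HMG proteins displace from nucleosomes, moved both ways with JQ1: of 5 tested, HIST1H1C rose by 0.72 ± 0.22, HIST1H1E fell by 0.63 ± 0.15 and HIST1H1D fell by 0.63 ± 0.14, and H1F0, named beyond the rule because 1 gene remained, rose by 0.56 ± 0.10 (adjusted p = 0.0316, 0.0135, 0.0108 and 0.00484 by edgeR). For palbociclib all 5 had values below 0, from -1.03 to -0.51 with a median of -0.79 against 0.01 over all genes, and none was called. Of 9 genes of the LIN28, let-7 processing and IGF2BP list, ZCCHC11, a terminal uridylyltransferase of let-7 precursors, rose by 0.53 ± 0.15 and IGF2BP2, an mRNA-binding protein tied to HMGA2, by 0.42 ± 0.13 with JQ1. LIN28B was at most 0.282 CPM. Let-7 itself was not measured by this assay.

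Of the HMGB1 receptor and export list, 2 of 10 genes were expressed enough to test and neither was called. Of 8 genes of the SET complex and of DNA end joining, 3 fell with JQ1: NME1 by 0.76 ± 0.14, ANP32A by 0.39 ± 0.12 and XRCC5 by 0.34 ± 0.11 (adjusted p = 0.00606, 0.0366 and 0.0358 by edgeR). Of the cycle genes, 16 of 38 S genes and 18 of 53 G2M genes were called lower with JQ1, 0 and 2 with palbociclib, and none higher. Over all genes tested, 19.7% were called lower with JQ1 and 0.0754% with palbociclib. Most genes of both lists did not pass the threshold, but 37 S and 45 G2M genes had values below 0 with JQ1. With palbociclib these were 34 and 50. On chromosome 13, the 10 tested neighbours of HMGB1 had JQ1 changes from -0.76 to 0.40 (median -0.22), of which POMP and FRY were called lower and UBL3 higher. With palbociclib, 8 of these 10 had values below 0, from -0.65 to 0.15 over all 10 (median -0.25), and 0 were called. What gene copy number adds to these values was not tested.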

How the data were processed

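The deposited values were UMI counts per gene and cell from Chromium 3′ libraries, which the authors aligned to hg19 and counted with Cell Ranger, with the library of each cell in a separate table. Counts were summed per library, genes with at least 5 CPM in at least 2 libraries were kept, and JQ1, palbociclib and paclitaxel were fitted as additive terms with edgeR 4.0.16 (TMM, quasi-likelihood test, 4 residual degrees of freedom). limma 3.58.1 tested phase ratios and DESeq2 1.42.0 was an alternative. Cells passing the study's filter (1% to 15% mitochondrial UMIs, at least 2000 genes, 5575 of 5738) were thinned to 10000 UMIs, which left out 88, and given phases with Seurat 5.3.0 without HMGB2 on the list. No doublet caller was run. The edgeR fit was tested on simulated counts and the limma fit on simulated log2 ratios. The changes put in were larger than those of the members, so recovery of changes of the members' size was not tested. p-values measure spread of pooled libraries around the additive terms. That spread takes in Pre against DMSO and any departure from additivity, besides the pair of JQ1 libraries. Alternatives were other scalings and tools, no filter, other cell sets, the experiment as a term or alone, single phases and each library left out. The members and gene lists were chosen with earlier results of these data known, and within-library phases, the interaction terms, the phase ratio test, the fit of G1 cells without Tax, the motifs and the printed windows were chosen after seeing the data. All members were named, with at most 3 called genes per list and exposure of largest change, 5 tested neighbours on each side of HMGB1 and, for members ranging by over 1 on the log2 scale (not HMGN1 or HMGN3), the 3 genes nearest in pattern, which for HMGA2 are not reported here.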

Additional observations from a re-analysis of the deposited data

Results flagged for a closer look

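Among the 4 libraries without JQ1, 1 library stood apart from the rest for 2 of the members, by a gap to the nearest library that made up most of the whole range. For HMGA2 it was DMSO, at 6.40 CPM against 10.6 to 11.3 CPM in Pre, Tax and Pal (gap over range 0.865, above Dixon's 95% limit for 4 values). Without DMSO the JQ1 change of HMGA2 was -1.17 in place of -1.01. For HMGB3 it was Pal, at 105 CPM against 190.0 to 202 CPM in Pre, DMSO and Tax (gap over range 0.873). These 4 libraries differ in treatment, 32 groups of 4 or 6 libraries were looked at, and chance alone flags about 1 group in 20.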

How the results depend on the processing

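Of 544 refitted member changes, 469 kept their direction and side of the threshold, 21 gained a call, 30 lost one and 24 changed sign, none of the last being called. For JQ1, 5 members and 3488 genes became 3 members on library totals, 1 member (HMGB3) and 463 genes with the experiment as a term, 3 members within the experiment with paclitaxel, 1788 genes in G1 cells, 1985 in G1 cells scored within each library, and 3 members and 1704 genes in G1 cells without Tax. Without 1 library, 3 to 5 members and 1760 to 4190 genes were called, fewest genes without JQ1-A. For palbociclib, 1 member and 26 genes became 4 and 515 with DESeq2, 4 and 205 without the filter, 2 members in cells passing the study's filter, 15 genes in thinned cells, 0 and 0 with the experiment as a term, in G1 cells and in G1 cells scored within libraries, 0 and 14 in G1 cells without Tax, 3 and 172 in S cells, and 4 and 310 in S cells scored within libraries. Without 1 library they were 0 to 4 members and 0 to 938 genes. For paclitaxel, 0 genes became 9 with DESeq2, 2 without the filter, 2 in thinned cells, 2 within its experiment, 1 in G1 cells without Tax, 1 in S cells scored within libraries and 0 to 4 without 1 library.

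Signs changed for the following. HMGB2 with JQ1 was at 0.086 within the experiment with paclitaxel, 0.040 and 0.17 in S and G2M cells, 0.013 and 0.14 in these scored within libraries, and -0.29 to 0.0073 without 1 library. HMGN3 with JQ1 was at -0.14 on library totals, -0.010 in G1 cells scored within libraries and -0.010 to 0.10 without 1 library. With paclitaxel, HMGA2 was at 0.046 without the filter, 0.23 with the experiment as a term and within it, 0.18 in G2M cells, 0.27 in G2M cells scored within libraries and -0.46 to 0.28 without 1 library. HMGN1 was at 0.020 and 0.029 in G2M cells by the 2 scorings. HMGN3 was at 0.0019 in G1 cells and -0.20 to 0.0021 without 1 library, HMGA1 at -0.12 in G1 cells without Tax and -0.17 to 0.44 without 1 library, and HMGB2 at -0.10 to 0.50. The S to G1 ratio of HMGB3 was 1.21 with all UMIs. The causes were not tested. Low counts limit HMGA2 most, with as few as 42 UMIs, in JQ1+Tax. The 35 G1 cells of Tax limit every value in that phase.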
